A study of Rattus norvegicus with 18 samples.

Results

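The genes described here encode the proteins of the cytosolic ribosome. They were taken from the array's annotation as every clone with 1 gene symbol that starts with Rpl or Rps and a digit, or with Rplp, without the Rps6k kinases and the mitochondrial Mrpl and Mrps genes. The rule found 31 clones among the 2304 on the array, 21 of the large subunit and 10 of the small subunit, each for a different gene, and all 31 matched a RefSeq gene of the rat assembly GRCr8. A gene was tested when both arrays of a rat pair had a value in at least 4 of 6 pairs, which held for 947 clones and for 30 of the 31 genes. The gene left out was Rps29, of the small subunit, with a value on 1 of the 12 arrays that compare injured with control rats, whereas 26 of the 31 had a value on all 12. Rpl18-ps7 and Rpl17-ps16 are annotated as pseudogenes, and 3 further symbols, Rpl27l1, Rpl37l1 and Rpl36al1, end in l1.

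The study measured RNA of whole kidney from 12 Rattus norvegicus on spotted cDNA arrays, on which 2 samples labelled with the dyes Cy3 and Cy5 compete for the same spots. 6 rats were sham-operated, and 6 rats, called ARF (acute renal failure), were studied 35 days after 52 min of kidney ischemia and reperfusion. The labels give no strain, age or sex, and name no allele or other agent for either group. Sham and ARF rats form 6 labelled pairs, A to F. For each pair there are 2 arrays, 1 with the sham rat in Cy3 and 1 with it in Cy5, and the remaining 6 arrays, R1 to R6, set a sham rat against another sham rat. The arrays of the pairs held 1586 to 2786 of 4608 spot values, and the sham-sham arrays held 914 to 2232. The number of arrays limits the precision.

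Every value below is a log ratio as the authors deposited it, with each array centred on a mean of 0 and with a log base that the labels do not state. The labels do not state the direction either. It is taken here as ARF over sham, or channel 2 (Cy5) over channel 1 (Cy3) on the sham-sham arrays, and with the opposite convention every sign in this text turns. Both arrays of a pair are read as already given in that same direction, which is likewise an assumption. If it were wrong, the ARF values and the dye effects below would change places. Because each array is centred, a value compares a gene with the rest of the array, not with an absolute amount of RNA. In whole kidney, fewer cells of a type and less RNA per cell cannot be told apart. The tissue markers Umod and Slc12a1 (thick ascending limb), Cubn (proximal tubule), Egf and Pvalb (distal tubule) and Aqp3 (collecting duct) had values on 12 of 12 ARF-sham arrays, whereas Hbb of red blood cells had a value on 0. In limma, Egf was lower in ARF rats (-0.34, adjusted p = 0.0482), while the other distal tubule markers Pvalb and Slc12a3 had 0.12 each with adjusted p of 0.358 and 0.567. The fibroblast genes Col1a1 (0.53, adjusted p = 0.0482) and S100a4 (0.70, adjusted p = 0.0284) were higher, and Col3a1 (0.28) and Vim (0.19) did not pass (adjusted p = 0.252 and 0.540). Without pair E, without pair F, or with a trended and robust variance, 0 of all clones were called, so these 3 calls end there. Their part in the ribosomal protein values was not tested. Scnn1a, also of the collecting duct, had values on 11 of 12 ARF-sham arrays (-0.22, limma adjusted p = 0.144). The macrophage marker Lyz2 had values on 9 and the endothelial marker Kdr on 8, and neither had enough pairs to be tested. The immune and endothelial markers Cd68, Cd14, Cd3e, Cd79a and Pecam1 were not analysed here.

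A ribosome has a small subunit, which reads the mRNA and matches each codon with a tRNA, and a large subunit, which joins amino acids and holds the tunnel through which the new chain leaves. Most proteins of both are needed in equal number, and their mRNAs are among the most abundant in most cells, the kidney tubule included. Most of these mRNAs start with a C followed by a run of C and T, the terminal oligopyrimidine tract, through which the mTOR pathway and the RNA-binding protein Larp1 set how actively they are translated. Their genes also have many processed pseudogenes, and a cDNA spot cannot separate transcripts that are nearly identical in sequence.

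Runs of C and T were looked for at the annotated start sites. Windows are shown for 9 genes whose values are described below: 4 of those highest in ARF rats (Rps23, Rps26, Rps15 and Rplp0), 4 of those that differed most between pairs (Rpl31, Rpl39, Rps3a and Rps7), and Rps24, the lowest. Each window is 50 bases from RefSeq, build GRCr8, read 5' to 3' on the gene's strand, with 35 bases before the annotated start and 15 from it on. Capitals mark the longest run of C and T that comes within 5 bases of the start, which in Rps23 goes on past the window.
Rps23, chr2:23814482-23814531, plus strand: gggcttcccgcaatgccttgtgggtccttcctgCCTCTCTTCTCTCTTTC
Rps26, chr7:1643390-1643439, minus strand: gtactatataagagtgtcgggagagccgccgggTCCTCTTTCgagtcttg
Rps15, chr7:10068101-10068150, minus strand: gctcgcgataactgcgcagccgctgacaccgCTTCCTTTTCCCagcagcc
Rplp0, chr12:46718376-46718425, minus strand: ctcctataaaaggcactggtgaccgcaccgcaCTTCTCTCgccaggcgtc
Rpl31, chr9:49143076-49143125, plus strand: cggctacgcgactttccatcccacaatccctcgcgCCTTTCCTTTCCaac
Rpl39, chrX:121195882-121195931, minus strand: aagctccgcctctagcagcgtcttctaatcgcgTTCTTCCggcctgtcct
Rps3a, chr2:173827028-173827077, minus strand: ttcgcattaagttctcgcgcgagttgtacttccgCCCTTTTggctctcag
Rps7, chr6:50999431-50999480, minus strand: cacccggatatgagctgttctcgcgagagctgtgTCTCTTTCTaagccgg
Rps24, chr16:96482-96531, plus strand: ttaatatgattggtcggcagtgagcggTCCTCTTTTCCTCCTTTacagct
Of the 31 genes 24 had a promoter entry, and 20 of these 24 (83.3%) had a run of at least 6 such bases there, against 5410 of 27457 promoters of all genes (19.7%). The median longest run was 10 bases in the ribosomal protein genes and 3 in all promoters. The annotated start was itself a C of the run in 11 of the 20 genes and a T of the run in 4, and it lay outside the run in the other 5. Only the gene's own strand was searched. All 9 windows shown hold such a run, although the genes' values on the arrays differ. Rpl36, Rpl41, Rpl6 and Rps6 had no run of that length at the annotated start.

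The main comparison of the study is of ARF with sham kidney after recovery. Here 0 of the 30 genes passed the threshold of an adjusted p under 0.05 (limma on the 6 pair values, Benjamini-Hochberg over all 947 clones), where 0.95% of all clones passed. Without adjustment 6 of 30 had a p under 0.05, against 14.7% of all clones. The mean pair value lay above 0 for 26 of 30 genes and ranged from -0.074 to 0.22, with a median of 0.093. Over all clones tested the median was 0.015 and 54.1% lay above 0. The SD over the pairs had a median of 0.17 over these genes and likewise 0.17 over all clones, which is above most of the means. The count also rested on the dye orientation and on pair A: 30 of 30 genes were above 0 on the arrays with sham in Cy3 alone and 6 of 30 with sham in Cy5 alone, and without pair A it was 17 of 29, with a median of 0.052.

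Proteins of the large subunit were above 0 in mean for 19 of 21 genes, with a median of 0.083 and 2 unadjusted p under 0.05. Rpl15, a core protein of this subunit, had values of 0.19, 0.19, -0.0071, 0.34, 0.30 and 0.26 in pairs A to F. All pairs but C were thus high, and pair D was highest. Its mean was 0.21 ± 0.12 (SD, n = 6), and its adjusted p of 0.129 in limma was the smallest of the 30 genes. Rplp0 forms the base of the stalk that recruits translation factors to the ribosome and is often used as a reference gene. Its values were 0.092, 0.056, -0.065, 0.40, 0.26 and 0.16, again highest in pair D and below 0 in pair C. The mean of Rplp0 was 0.15 ± 0.16 (SD, n = 6; limma, adjusted p = 0.338). The other stalk proteins, Rplp1 and Rplp2, were not analysed here. Rpl24, which forms a bridge to the small subunit, had 0.33, 0.16, -0.054, 0.022, 0.096 and 0.21, with a mean of 0.13 ± 0.14. Rpl6 had 0.10, 0.15, -0.17, 0.19, 0.26 and 0.18, with a mean of 0.12 ± 0.15, and it too was below 0 in pair C alone.

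The 4 lowest genes of the large subunit had means near 0 that hid wide differences between pairs. Rpl39, a very short protein that lines the exit tunnel, had 0.82 in pair A, 0.21 in B, -0.70 in D, -0.37 in E and -0.054 in F, and no value for pair C. Its mean was -0.018 ± 0.58 (SD, n = 5), the widest spread of the 30 genes. Rpl30 had 0.52, 0.12, -0.43, -0.23 and 0.092 in the same 5 pairs, with a mean of 0.016 ± 0.36. Rpl35a, needed for maturation of the large subunit, had 0.62, 0.051, -0.26, -0.21, -0.12 and 0.024 in pairs A to F (mean 0.016 ± 0.32). Rpl36al1 had 0.45, 0.14, -0.29, -0.28, -0.15 and -0.088 (mean -0.035 ± 0.29). In all 4 genes pair A was highest and pairs D and E were below 0.

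Among the other 13 genes of the large subunit, all had means above 0, from 0.020 in Rpl41 to 0.11 in Rpl18-ps7. Of these, 2 lay above 0 in every pair. Rpl27l1 ranged over the pairs from 0.031 to 0.21 with a mean of 0.093 ± 0.064, and Rpl18-ps7 from 0.0079 to 0.29 with a mean of 0.11 ± 0.098 (limma, adjusted p = 0.445 and 0.424). Rpl5, which binds the 5S RNA and, outside the ribosome, the p53 regulator Mdm2, had both arrays in 4 pairs, with 0.59 in A, 0.051 in C, -0.18 in E and -0.078 in F. Rpl29 had values in 5 pairs, from -0.015 to 0.18, with 4 above 0. Rpl41, the shortest of the ribosomal proteins, ranged from -0.30 in pair C to 0.26 in pair B.

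The means of the remaining 8 genes lay between 0.021 and 0.096. In 5 of them pair C was lowest. These were Rpl27a (-0.31 in pair C, highest 0.30), Rpl4 (-0.23, highest 0.36), Rpl22, which also binds RNAs outside the ribosome (-0.19, highest 0.41), Rpl36 (-0.19, highest 0.18) and Rpl35 (-0.17, highest 0.15). Rpl37l1 and Rpl31 were lowest in pair D (-0.19 and -0.34) and highest in pair A (0.34 and 0.70). Rpl17-ps16 ranged from -0.086 in pair E to 0.49 in pair A.

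In the small subunit 7 of 9 means were above 0, with a median of 0.12 and 4 unadjusted p under 0.05. Rps15a had values of 0.45, 0.14, 0.17, 0.057, 0.17 and 0.33 in pairs A to F, all above 0. Its mean, 0.22 ± 0.14 (SD, n = 6; limma, adjusted p = 0.137), was the highest of the 30 genes. Rps26, which contacts the mRNA as it leaves the subunit, was likewise above 0 throughout, at 0.22, 0.051, 0.023, 0.052, 0.16 and 0.27 (mean 0.13 ± 0.10; limma, adjusted p = 0.338). Rps23 sits at the decoding centre and bears on its accuracy. It had 0.42, 0.22, -0.034, 0.10, 0.061 and 0.25, below 0 in pair C alone (mean 0.17 ± 0.16; limma, adjusted p = 0.272). Rps15, needed for export of the small subunit from the nucleus, had 0.049, 0.13, -0.0042, 0.33, 0.17 and 0.19, highest in pair D (mean 0.15 ± 0.12; limma, adjusted p = 0.294). On the arrays with sham in Cy5 alone the means of Rps23, Rps26 and Rplp0 turned to -0.020, -0.061 and -0.0041.

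The lowest gene of all was Rps24, which takes part in processing the RNA of the small subunit. It had -0.23, -0.14, 0.22, -0.13, -0.034 and -0.14 in pairs A to F, so that pair C was its only value above 0 and pair A its lowest. Its mean was -0.074 ± 0.16 (SD, n = 6; limma, adjusted p = 0.629). It was the only one of 30 genes below 0 in pair A. Rps3a had 0.67, 0.23, -0.11, -0.46, -0.31 and -0.12 (mean -0.016 ± 0.41), and Rps7, also needed for processing that RNA, had 0.60, 0.24, -0.35, -0.16, -0.23 and 0.053 (mean 0.024 ± 0.35). Both were highest in pair A and below 0 in D and E, as was Rpl39, although Rps7 was lowest in pair C. Rps13 had 0.30, 0.20, -0.12, 0.040, -0.0061 and 0.25, with a mean of 0.11 ± 0.16. Rps6, the protein phosphorylated by the kinases that the rule leaves out, had 0.42, 0.22, -0.016, -0.082, 0.055 and 0.14 (mean 0.12 ± 0.18).

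**Figure D1:**
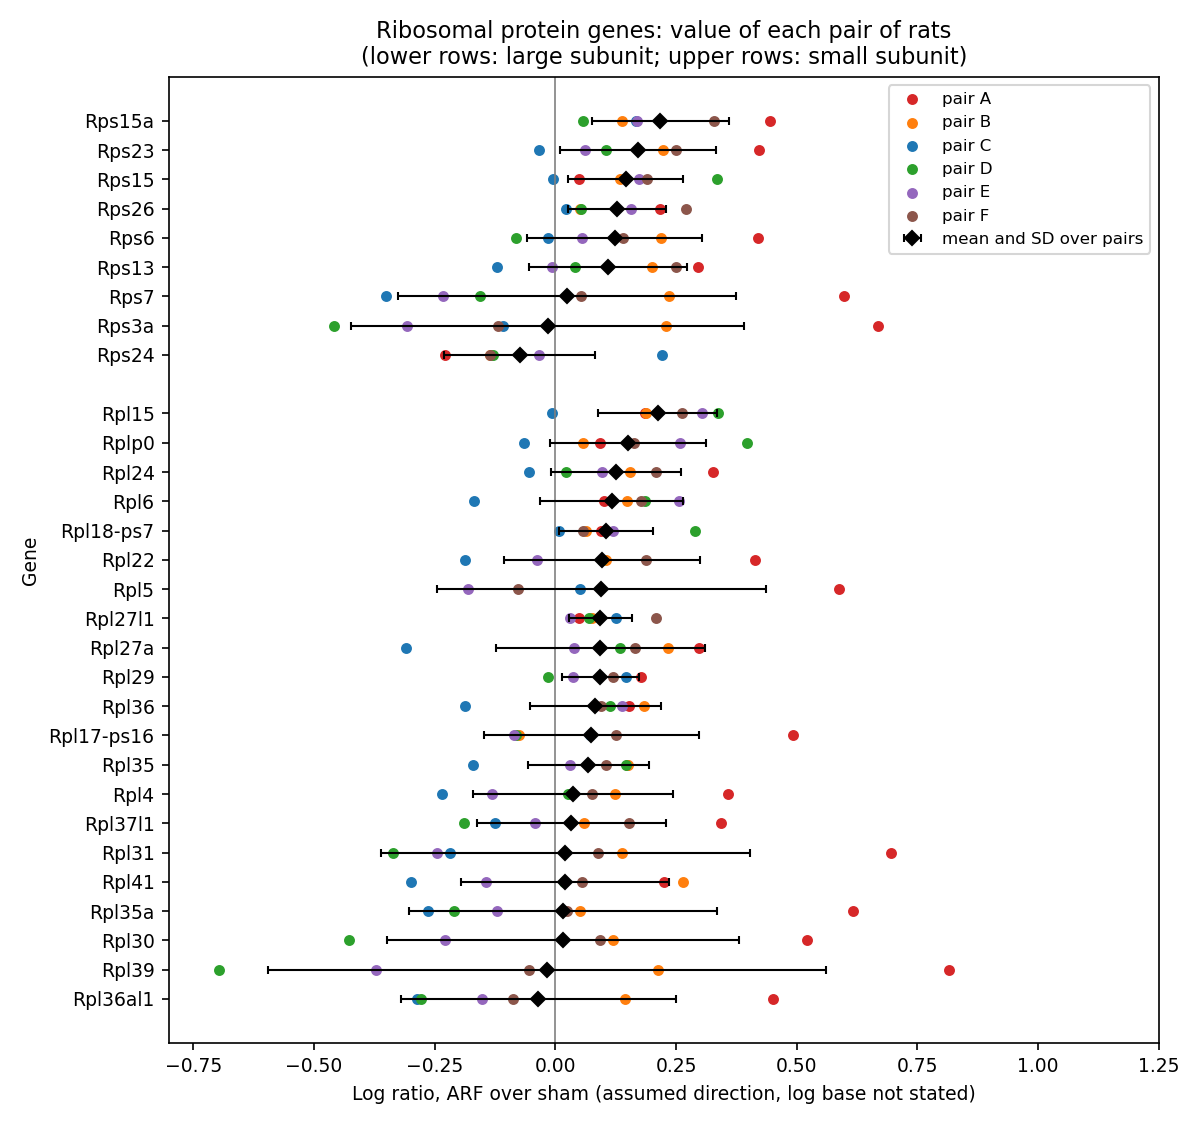
Log ratio of ARF over sham (x axis, assumed direction, log base not stated) of the 30 tested genes (y axis, ordered by mean within each subunit). Coloured points are the pairs A to F, and diamonds with bars are the mean and SD over pairs. Pair A lies far to the right for most genes, and in the lower rows of each subunit pair D lies to the left, as in Rpl39 with 0.82 and -0.70.

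The medians over genes thus differed more between pairs than the means over pairs did between genes. These are unlike measures, because opposite values cancel in a mean over pairs. Within a single pair the genes spread widely, from -0.23 to 0.82 in pair A and from -0.70 to 0.40 in pair D. The SD of the 30 mean values was 0.070, whereas the 6 medians over genes had an SD of 0.14 around a mean of 0.092. These medians were 0.33 in pair A, 0.14 in B, -0.087 in C, 0.026 in D, 0.012 in E and 0.12 in F. Genes above 0 numbered 29 of 30 in A, 26 of 28 in B, 8 of 28 in C, 17 of 29 in D, 15 of 30 in E and 25 of 30 in F. Medians over all clones tested stayed between -0.036 and 0.022 in the same pairs. In pairs A, B and F most of the genes lay above 0, in C most lay below, and in D and E they spread to both sides. Of the 26 genes measured in every pair, 15 were highest in pair A and 18 were lowest in pair C.

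Pairs A and D ordered the genes in opposite ways. Across the 29 genes measured in both, the correlation of the values was -0.72, and that of pairs A and E was -0.71 over 30 genes. Pairs D and E went together with 0.88 over 29 genes, and pairs E and F with 0.69 over 30. Over all clones measured in the same pairs of pairs, the correlations were -0.23 for A and D, 0.18 for A and E, 0.63 for D and E, and 0.68 for E and F. These are descriptions across genes, which share an array and its dyes and are not replicates, and no test was made.

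Splitting the genes by the sign of pair D, a choice made after the values were seen, gives the following picture. The 12 genes below 0 in pair D, 8 of the large and 4 of the small subunit, had a median of 0.51 in pair A, -0.14 in pair E and 0.070 in pair F. The 17 genes above 0 in pair D, 12 of the large and 5 of the small subunit, had medians of 0.22 in pair A, 0.096 in E and 0.19 in F. All 17 were above 0 in pairs A, B and F. Most genes below 0 in pair D were above 0 there too, 11 of 12 in A, 9 of 11 in B and 8 of 12 in F. Both subunits were found on each side. Rpl31, at the mouth of the exit tunnel, stood with Rpl39 and Rps3a at 0.70 in pair A and -0.34 in pair D, while Rplp0, Rpl15, Rps15 and Rpl18-ps7 were the highest in pair D, at 0.29 to 0.40, with 0.049 to 0.19 in pair A.

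**Figure D2:**
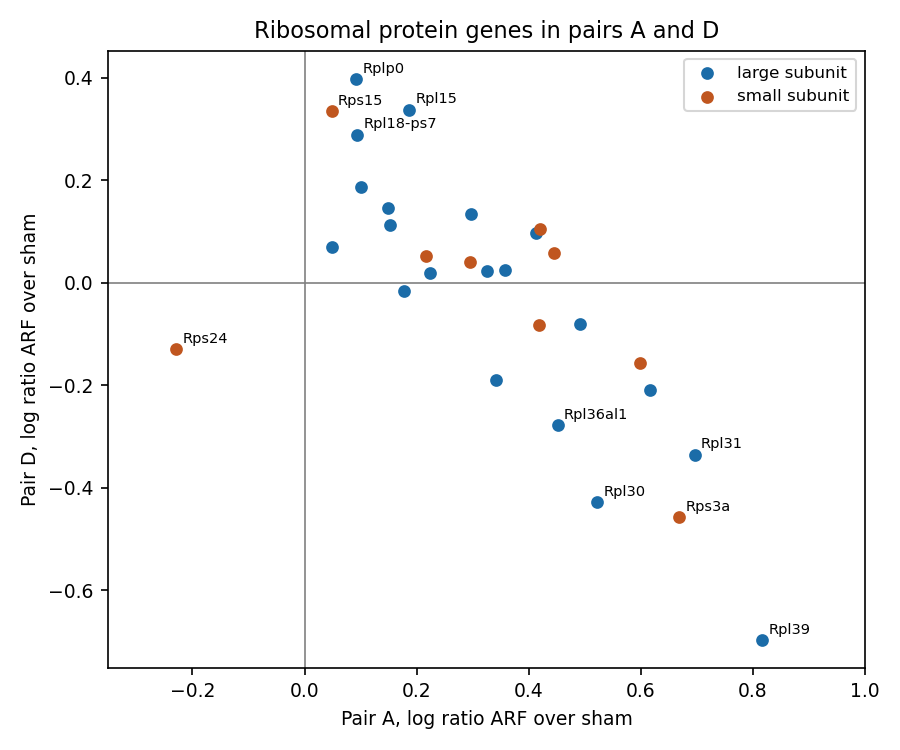
Log ratio of ARF over sham in pair A (x axis) and pair D (y axis), 1 point for each of the 29 genes measured in both pairs, coloured by subunit. The points run from Rplp0 (0.092 and 0.40) down to Rpl39 (0.82 and -0.70), with Rps24 alone at the lower left.

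Large and small subunit were compared as medians, with no test. The median of the small subunit genes was higher in each of the 6 pairs. The large subunit medians were 0.33, 0.14, -0.17, 0.024, -0.038 and 0.10 in pairs A to F, and those of the small subunit were 0.42, 0.20, -0.016, 0.040, 0.055 and 0.19. The difference, large minus small, was -0.094, -0.062, -0.15, -0.016, -0.093 and -0.084, with a mean of -0.084 ± 0.045 (SD, n = 6 pairs). It depended on how a subunit was summarised: with means in place of medians it was 0.020, -0.017, -0.089, 0.0066, -0.024 and -0.034, below 0 in 4 of 6 pairs, with a mean of -0.023. By orientation, the large subunit had the higher median on 1 of 6 arrays with sham in Cy3 (pair E, by 0.048) and on 2 of 6 with sham in Cy5 (pairs B and D, by 0.0067 and 0.017). On the sham-sham arrays the median of the large subunit was above that of the small subunit on 4 of 6 arrays, with a mean difference of 0.011 ± 0.035. The small subunit is represented by 9 genes.

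The dye orientations were compared next. The dye effect is the value on the array with sham in Cy3 minus the value on the array with sham in Cy5, divided by 2. If both arrays are given as ARF over sham, as assumed here, a gene above 0 gave relatively more signal in Cy5 whichever rat was in it. If the arrays with sham in Cy5 were not turned, these values would be the ARF values instead. For 16 of 30 genes the dye effect passed the threshold (limma, adjusted p under 0.05), 11 of the large and 5 of the small subunit, where 16.1% of all clones passed. All 16 were higher in Cy5, a direction in which 10.5% of all clones were called, and 0 of 30 genes were among the 5.6% called higher in Cy3. The dye effect was above 0 for 29 of 30 genes, with a median of 0.14 (0.14 in the large and 0.13 in the small subunit), against 0.020 over all clones. It was larger in size than the mean ARF value for 23 of 30 genes. Without pair D the count fell to 7 of 30 and without pair E to 9 of 29, although the median stayed at 0.13 and 0.14. The calls over all clones fell in the same runs, from 152 to 55 without pair D and to 61 without pair E.

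Rpl18-ps7 had the largest dye effect. Its 6 pairs gave 0.23, 0.30, 0.28, 0.23, 0.26 and 0.24, close together, with a mean of 0.26 ± 0.030 (SD, n = 6; limma, adjusted p = 0.00412). Rpl37l1 followed with 0.21, 0.26, 0.14, 0.29, 0.32 and 0.18 (mean 0.23 ± 0.069; limma, adjusted p = 0.00522), and Rps13 with 0.24, 0.28, 0.19, 0.17, 0.24 and 0.15 (mean 0.21 ± 0.050; limma, adjusted p = 0.00522). Rpl35a had the next largest mean, 0.19 ± 0.16 (limma, adjusted p = 0.0381). The other 12 genes called had dye effects between 0.13 and 0.19 (Rps23, Rps26, Rpl27a, Rps15a, Rpl31, Rpl35, Rplp0, Rpl36al1, Rpl41, Rpl30, Rpl22 and Rps7). At the other end, Rpl5 had a mean of -0.0070 ± 0.13 (n = 4), Rpl24 0.053 ± 0.097, Rps15 0.067 ± 0.13 and Rps3a 0.077 ± 0.11. Of these 4, Rps15 had an ARF mean of 0.15 and Rps3a one of -0.016.

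A dye effect did not pass for 14 genes, those last 4 included. The adjusted p lay just above the threshold in Rpl27l1 (0.0514), Rpl36 (0.0525), Rpl4 (0.0587) and Rpl17-ps16 (0.0633), with dye effects of 0.15, 0.10, 0.094 and 0.12. Rpl15 (0.11), Rpl29 (0.11), Rpl39 (0.099), Rps24 (0.089), Rpl6 (0.085) and Rps6 (0.085) had larger adjusted p, from 0.104 to 0.196. So 13 of these 14 also lay above 0.

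Read for each orientation alone, most genes had opposite signs. With sham in Cy3 the mean over pairs was above 0 for 30 of 30 genes, with a median of 0.20, where 44.2% of all clones were above 0. With sham in Cy5 it was above 0 for 6 of 30 (Rpl15, Rps15, Rpl24, Rps6, Rps15a and Rpl6), with a median of -0.059, where 49.6% of all clones were above 0. The other 24 genes changed sign between the orientations.

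Tested on their own, the arrays with sham in Cy3 gave 3 calls of 30 genes (2.45% of all clones), in Rps15a (0.40, limma adjusted p = 0.0405), Rps23 (0.36, 0.0380) and Rpl18-ps7 (0.36, 0.0210). In Rps23 these arrays gave 0.64, 0.49, 0.16, 0.36, 0.24 and 0.29 in pairs A to F, and the arrays with sham in Cy5 gave 0.20, -0.038, -0.23, -0.15, -0.11 and 0.21. Rps15a had 0.51, 0.12, 0.35, 0.18, 0.52 and 0.71 with sham in Cy3, and 0.38, 0.16, -0.018, -0.064, -0.18 and -0.050 with sham in Cy5. Both orientations of Rps15a lay above 0 in pairs A and B. Rpl18-ps7 had 0.29 to 0.52 in one orientation and -0.28 to 0.062 in the other, so its arrays did not overlap between orientations. The arrays with sham in Cy5 gave 0 of 30 (0.943% of all clones), with 1 gene at an unadjusted p under 0.05.

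The orientation also showed in the median of the genes on each array. These medians with sham in Cy3 were 0.52, 0.32, -0.045, 0.14, 0.16 and 0.24 in pairs A to F, and with sham in Cy5 0.19, -0.035, -0.24, -0.13, -0.19 and -0.018. Within each pair the array with sham in Cy3 was the higher of the 2. The median dye effect per pair was 0.15, 0.17, 0.094, 0.13, 0.16 and 0.088, so it varied less from pair to pair (0.13 ± 0.033, SD, n = 6) than the ARF medians did (SD 0.14). Both orientations placed pair A highest and pair C lowest. Across these genes the 2 arrays of a pair correlated with 0.81 in pair A, -0.21 in B, 0.29 in C, 0.81 in D, 0.41 in E and -0.12 in F, so in pairs B and F the orientations did not order the genes alike. No gene was above 0 on every array with sham in Cy3 and below 0 on every array with sham in Cy5.

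The arrays of sham against sham hold no injured rat. None of these rat combinations was repeated with the dyes exchanged. A mean over R1 to R6 therefore cannot tell the dye from differences between control rats. Here 27 genes had at least 4 values, 21 of them were above 0 (Cy5 over Cy3), and 2 passed the threshold (limma, 2.8% of all 857 clones tested). Rps23 had 0.059, 0.19, 0.33, 0.46, 0.36 and 0.33 on R1 to R6, all above 0 (mean 0.29 ± 0.14, SD, n = 6 arrays; limma, adjusted p = 0.0417). Rpl39 had 0.38, 0.49, 0.27 and 0.23 on R2, R4, R5 and R6 (mean 0.34 ± 0.12, n = 4 arrays; limma, adjusted p = 0.0443). Several of these arrays share a rat, so n counts arrays and the p-values are too small. Without R3, R4, R5 or R6, 0 of these genes were called, where 4, 0, 0 and 13 of all clones were. Rpl39 had only the 4 values that a test needs. Without R2, R4, R5 or R6 it was therefore not tested, and those runs say nothing about it.

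The median over genes on the sham-sham arrays was 0.13, against -0.022 for all clones, and array by array it was 0.042, 0.026, 0.12, 0.094, 0.24 and 0.12 for R1 to R6. All 6 were above 0. After the dye effect of each clone was subtracted, the medians of the genes were -0.074, -0.13, -0.0023, -0.035, 0.15 and 0.0042. They were highest on R5, which set sham F over sham C. Over all clones tested the medians were then -0.041, -0.12, -0.024, -0.045, -0.00074 and -0.0215. Beside these the genes were lower on R1, nearly level on R2 and higher on R3 to R6. Gene by gene, the sham-sham mean and the dye effect correlated with 0.42 over 27 genes and with 0.50 over 668 clones, a description across clones of arrays that share rats and dyes. Rplp0 went against this, with a dye effect of 0.15 ± 0.036 and a sham-sham mean of -0.11 ± 0.17 (n = 6 arrays). The sham-sham values carry a limit: their rows were reordered, a choice made after the values were seen. Spots of the 31 genes had a value in 34.4% of cases in the deposited order and 79.6% after the exchange, against 95.0% on the ARF-sham arrays.

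**Figure D3:**
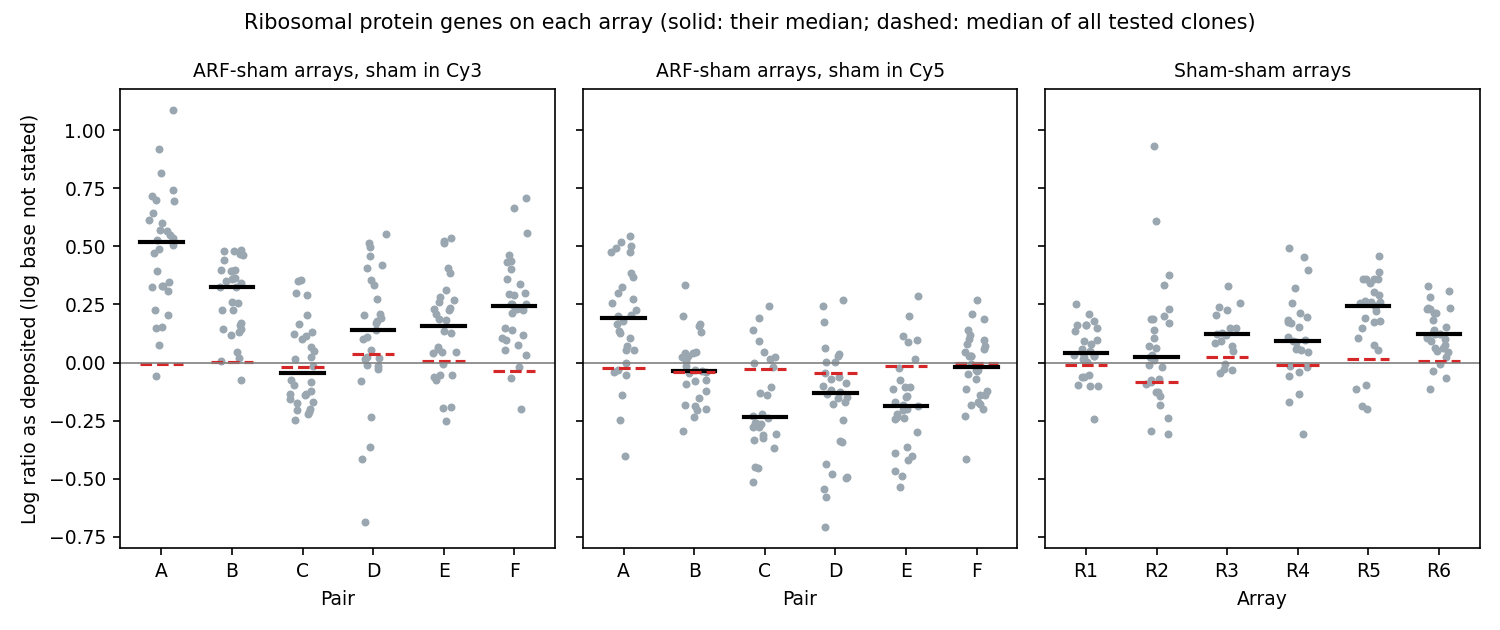
Log ratio as deposited (y axis, log base not stated) of the ribosomal protein genes on each of the 18 arrays (x axis), in panels for sham in Cy3, sham in Cy5 and sham against sham, with the genes' median as a solid line and that of all tested clones dashed. The solid lines fall from between -0.045 and 0.52 in the first panel to between -0.24 and 0.19 in the second, and lie above 0 on all 6 sham-sham arrays.

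All 18 arrays together give a relative level for each rat, from a least-squares fit with a term for the dye, over 25 genes. The median level of the ARF rats was 0.38 for A, 0.13 for B, -0.17 for C, -0.041 for D, -0.062 for E and 0.088 for F (mean 0.054 ± 0.19, SD, n = 6). In the sham rats A to F it was 0.090, -0.021, -0.14, -0.073, -0.072 and -0.030 (mean -0.040 ± 0.076, n = 6). The groups overlapped: ARF A was the highest and ARF C the lowest of the 12 rats. The median over all 565 clones with a level also differed between rats, and was highest in ARF A (0.099) and sham A (0.093). Relative to it the ribosomal protein genes stood at 0.28, 0.10, -0.20, 0.016, 0.043 and 0.12 in the ARF rats A to F, and at -0.0031, -0.050, -0.17, -0.033, 0.015 and -0.040 in the sham rats. On that scale ARF A was still the highest rat and both rats of pair C were the lowest, while sham A lay near 0. Sham C is linked to rats of other pairs through array R5 alone, and ARF C only through sham C. The low levels of these rats therefore both rest on R5 and are not independent. Without the pairing, limma on the 12 rat levels called 0 of 25 genes at an adjusted p under 0.05, with 1 at an unadjusted p under 0.05, where 0.531% of 565 clones were called.

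**Figure D4:**
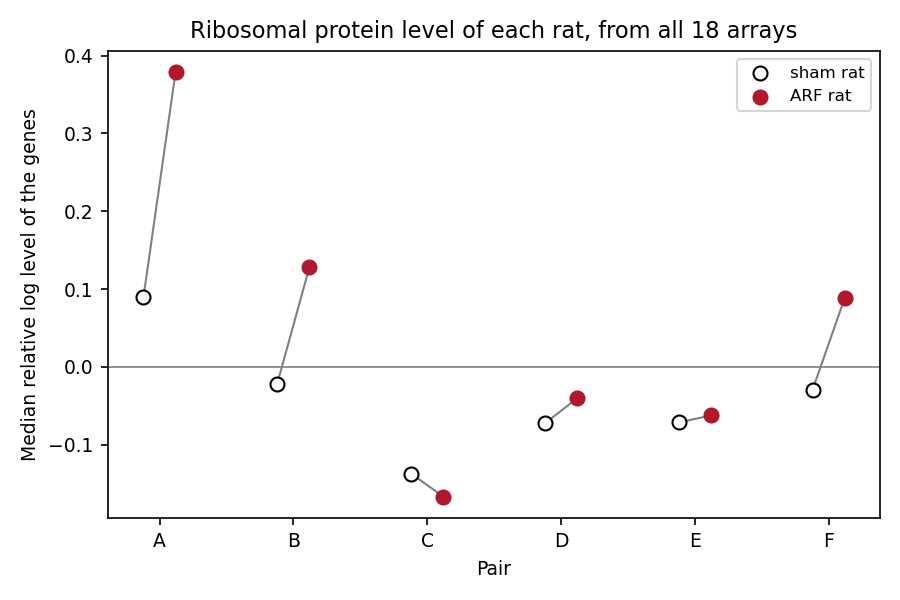
Median relative log level of 25 ribosomal protein genes (y axis, log base not stated) in each rat, by pair (x axis), with open circles for sham and filled circles for ARF rats, joined within a pair. ARF A stands highest at 0.38, both rats of pair C lie lowest at -0.14 and -0.17, and the ranges of the groups overlap. The rats of pair C are linked to the other pairs through array R5 alone.

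The rest of the translation apparatus was read from lists of genes. Of 22 such clones 11 were tested, 7 had means above 0, and 0 passed the threshold, with 2 at an unadjusted p under 0.05. The median was 0.025. Rack1 and Rpsa are proteins of the small subunit with other names. Rack1, a scaffold on the head of that subunit, had 0.18, 0.17, 0.056, 0.36, 0.21 and 0.33 in pairs A to F, above 0 in all, with a mean of 0.22 ± 0.11 (SD, n = 6; limma, adjusted p = 0.116). Like most ribosomal protein genes it had a dye effect in favour of Cy5 (0.18, adjusted p = 0.0164). Rpsa, also known as the laminin receptor, had a mean of 0.094 ± 0.18 (limma, adjusted p = 0.540) and a dye effect of -0.033.

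Both elongation factors tested, which serve the ribosome at each step along the mRNA, were above 0 in mean. Eef2, which moves the ribosome by 1 codon, had 0.062, 0.020, 0.071, 0.29, 0.17 and 0.23, above 0 in every pair, with a mean of 0.14 ± 0.10 (limma, adjusted p = 0.299). Eef1a1, which brings the charged tRNA, had a mean of 0.091 ± 0.10. Tpt1, the translationally controlled tumor protein, is no elongation factor but has an mRNA of the terminal oligopyrimidine class. Its mean was 0.025 ± 0.20, and it had a dye effect of 0.14 (limma, adjusted p = 0.0260), as large as the median of the ribosomal protein genes. In the initiation factors all 3 tested means were below 0, at -0.056 for Eif5, -0.035 for Eif2b1 and -0.026 for Eif2b4, each smaller than its SD over pairs. Genes of the list for the endoplasmic reticulum were mixed, with 0.082 for Ssr4, 0.013 for Rpn1 and -0.045 for Rpn2. The 4 clones listed under ribosome biogenesis, Npm1, Nolc1, Polr1b and Mycn, had too few pairs to be tested.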

How the data were processed

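The authors deposited normalized log values, log ratios of the 2 channels, from ImaGene spot data and a cited spot-quality method, per the labels; their unit has no stated log base or direction. Both orientations of a pair correlated above 0 over the clones tested (0.241 to 0.662), and they were read as turned the same way. Over the ribosomal protein genes alone the range was -0.205 to 0.815. A dye effect shared by both arrays could also give such a correlation without turning, so the reading is an assumption. If it were wrong, the ARF values and the dye effects would change places. Under it, dye effect and sham-sham mean correlated with 0.50 over 668 clones. Gene symbols are those of the platform annotation, brought up to date by gene identifier in RefSeq. Of 2304 clones 1489 had 1 symbol. The 2 spots (1152 rows apart) and the 2 arrays of a pair were averaged. In the sham-sham columns adjacent blocks of 288 rows were exchanged, after seeing the data: the correlation of where values were present rose from -0.0112 to 0.488.

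Pair values, dye effects and sham-sham ratios were tested against 0 with limma 3.58.1 in R 4.3.3 (intercept, eBayes, Benjamini-Hochberg over all clones tested), after a check on simulated data. The pairing comes from the labels. The rat pair is the replicate.

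Members, lists and tests were chosen with earlier results of these data known. Named were, in each subunit, the 4 highest and 4 lowest means, all with an unadjusted p under 0.05 or 1 sign in all pairs, the 4 highest and 4 lowest dye effects and those that did not pass, and in the other lists those with an unadjusted p under 0.05 and up to 4 others. Alternatives were centring, spots, pairs needed, orientation, variance model, replicate block and leaving out each pair or array. tRNA synthetases and mitochondrial ribosomal proteins were not analysed here.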

Additional observations from a re-analysis of the deposited data

Results flagged for a closer look

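In 4 genes 1 pair stood apart from the other 5 by more than a standard test for outliers allows (Dixon's, at 95%), which chance does in about 1 in 20 groups. The share of all clones that do so was not analysed here, so the count shows nothing particular to these genes. Differences between the subunits were screened in the same way. Pair A was far above the rest in Rpl17-ps16 (0.49, where the next value was 0.13) and in Rpl35a (0.62, next 0.051). Pair C was far below in Rpl36 (-0.19, next 0.094) and in Rpl6 (-0.17, next 0.10). The difference between the medians of large and small subunit stood apart at -0.24 on the array of pair C with sham in Cy5 (next -0.059) and at 0.078 on sham-sham array R2 (next 0.011).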

How the results depend on the processing

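ARF against sham gave 0 called genes under every alternative run except the arrays with sham in Cy3 alone, which gave 3. With the 12 arrays, the pair as a replicate block and a dye term, it called 0 of 30 genes for ARF and 15 for the dye; the other dye counts without a left-out pair ran from 12 to 19, and leaving out 1 pair gave 7 (without D) to 18 (without F), with 9 without E. With sham in Cy5 alone, 6 genes were above 0 in place of 26, the median of the genes turned to -0.059, and the means of Rplp0, Rps23 and Rps26 turned to -0.0041, -0.020 and -0.061. Leaving out 1 pair gave 17 (of 29, without A) to 29 (without D) genes above 0. The sham-sham count of 2 became 1 when values were centred on each block of rows and ranged from 0 to 2 when 1 array was left out. Without R2, R4, R5 or R6, Rpl39 had too few values to be tested. The large-minus-small difference lay between -0.097 (without pair D) and -0.051 (sham in Cy5 alone) over the changes of centring, spots, pairs and orientation, and was -0.023 with means in place of medians. Over all clones the calls ranged from 0 (variance with trend and robust, without pair E, or without pair F) to 29 (replicate block) for ARF, where 9 are reported, from 55 to 222 for the dye, where 152 are reported, and from 0 to 32 for sham-sham, where 24 are reported. The causes were not tested. Centring on array medians moved the median of all clones by 0.017. Signal over background was not analysed here, so the limit it sets on weak spots is unknown.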
